A study of Mus musculus with 12 samples.

Results

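The genes described here are the metallothioneins Mt1 and Mt2, the zinc-sensing transcription factor Mtf1, and the zinc transporters Slc30a1, Slc30a2, Slc39a4, Slc39a5, Slc39a8 and Slc39a10. They were taken by symbol from a table of read counts per gene for mouse kidney cortex, and make up 9 of its 55487 rows. The study asked how loss of ALR (augmenter of liver regeneration, gene symbol Gfer) in proximal tubular cells alters the kidney's response to ischemia-reperfusion (I/R) injury. It holds 12 bulk RNA-seq libraries, 3 in each of 4 groups. Animals of the groups Ctrl (no I/R) and Ctrl+I/R were ALR flox/flox controls, labelled WT. Those of PT-KO (no I/R) and PT-KO+I/R were knockouts, ALR flox/flox/Ggt1-Cre and labelled as ALR knockdown, in which the Ggt1 promoter directs Cre recombinase to the proximal tubule. All were on a mixed C57BL/6 background, and mice for the ischemia model were 6 to 8 weeks old. I/R was 22 min of clamping of both kidneys and 24 h of reperfusion. The mice without I/R are labelled sham. The groups after I/R are called injured Ctrl and injured PT-KO.

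Zinc is an essential cofactor of many enzymes and transcription factors, and free zinc in the cell is held very low. Metallothioneins are small cysteine-rich proteins that bind zinc, copper and cadmium. MTF-1, the product of Mtf1, binds metal response elements (MREs) when zinc rises, and Mt1, Mt2 and Slc30a1 are its classical targets. Transporters of the SLC30 (ZnT) family move zinc out of the cytosol, into vesicles or out of the cell. Those of the SLC39 (ZIP) family move it into the cytosol. Metallothionein genes are also known to respond to glucocorticoids, oxidative stress and inflammation, and the proximal tubule is a main site of metallothionein in the kidney.

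Library totals ran from 12165089 to 23123693 counts, and all 10 proximal tubule markers had counts in every library, so the tissue label and the markers match. Gfer itself was not lower in the libraries labelled knockout: it was at 12.7, 11.3 and 14.5 CPM (counts scaled to a common library size) in Ctrl, 10.01, 17.1 and 15.1 in PT-KO, 15.3, 20.02 and 17.7 in injured Ctrl, and 21.3, 22.7 and 21.4 in injured PT-KO. Between the injured groups Gfer was higher in PT-KO, without overlap. Whole-gene counts also include cells without Cre and parts of the transcript outside the deleted segment. The cause of these levels was not tested. The study reports lower ALR expression in PT-KO than in control kidneys. The knockout label rests on that report and on the genotype given, and not on these counts. Ctrl libraries 1 and 2 carried 22402 and 19755 counts of Xist and 0 of Y-linked genes, while the other 10 libraries had at most 11 of Xist and at least 3109 of Y-linked genes, so in every comparison with Ctrl the sex of the mice and the group cannot be told apart in full. Injured PT-KO library 2 stood apart in another way, with 0.222% of its counts on genes annotated as antisense, against 0.0891% to 0.171% in the other 11 libraries. Nothing in the labels says more than that each library is a separate sample of its group, so the p-values measure the spread between these samples.

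The promoters were searched for the element that MTF-1 is known to bind. The MRE core was searched as TGCACNC and TGCGCNC, N standing for any base, on both strands of windows from 250 bases before to 50 bases after each RefSeq transcription start (build GRCm38.p6). It occurred 3 times at Mt1, 4 times at Mt2, 2 times at Slc30a1 and 2 times at Slc30a2. It occurred once in 1 of 2 windows each of Slc39a5 and Slc39a8, and in none of the windows of Mtf1 and Slc39a10. Of all 32851 promoter windows in the table, 25.7% held at least 1 match, 7.11% at least 2, 1.97% at least 3 and 0.517% at least 4. The windows of both metallothioneins and of Slc30a1 are shown because these 3 known MTF-1 targets moved in opposite directions between the injured groups, with the matches in capitals as they read on the strand of the gene:
Mt1, chr8:94178839-94179138, + strand: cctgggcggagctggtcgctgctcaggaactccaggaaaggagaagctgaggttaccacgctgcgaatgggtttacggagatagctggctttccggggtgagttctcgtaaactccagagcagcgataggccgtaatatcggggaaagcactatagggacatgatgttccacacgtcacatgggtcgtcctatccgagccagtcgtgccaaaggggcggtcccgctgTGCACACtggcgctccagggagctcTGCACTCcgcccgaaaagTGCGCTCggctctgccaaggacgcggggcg
Mt2, chr8:94172368-94172667, + strand: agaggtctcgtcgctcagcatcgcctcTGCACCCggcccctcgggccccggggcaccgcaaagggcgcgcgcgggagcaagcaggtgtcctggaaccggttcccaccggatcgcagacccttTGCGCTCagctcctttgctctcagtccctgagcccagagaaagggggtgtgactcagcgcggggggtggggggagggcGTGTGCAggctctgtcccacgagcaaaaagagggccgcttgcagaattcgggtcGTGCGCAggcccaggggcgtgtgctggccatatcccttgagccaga
Slc30a1, chr1:191906531-191906830, + strand: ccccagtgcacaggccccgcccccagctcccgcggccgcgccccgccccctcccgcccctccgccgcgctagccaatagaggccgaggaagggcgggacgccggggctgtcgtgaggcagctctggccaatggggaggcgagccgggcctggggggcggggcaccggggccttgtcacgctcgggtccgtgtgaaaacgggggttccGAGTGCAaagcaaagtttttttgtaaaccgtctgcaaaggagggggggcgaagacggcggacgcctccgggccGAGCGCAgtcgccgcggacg
At Mt1 all 3 matches lay on the strand of the gene, the first 23 to 17 bases before the start. At Mt2 the matches were split between the strands and ranged from 223 bases before to 11 bases after the start. Both Slc30a1 matches read on the opposite strand, 1 on each side of the start. A match is a string of letters, not a measured binding site. Positions hold for the RefSeq start used, and elements outside these windows were not counted.

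**Figure D1:**
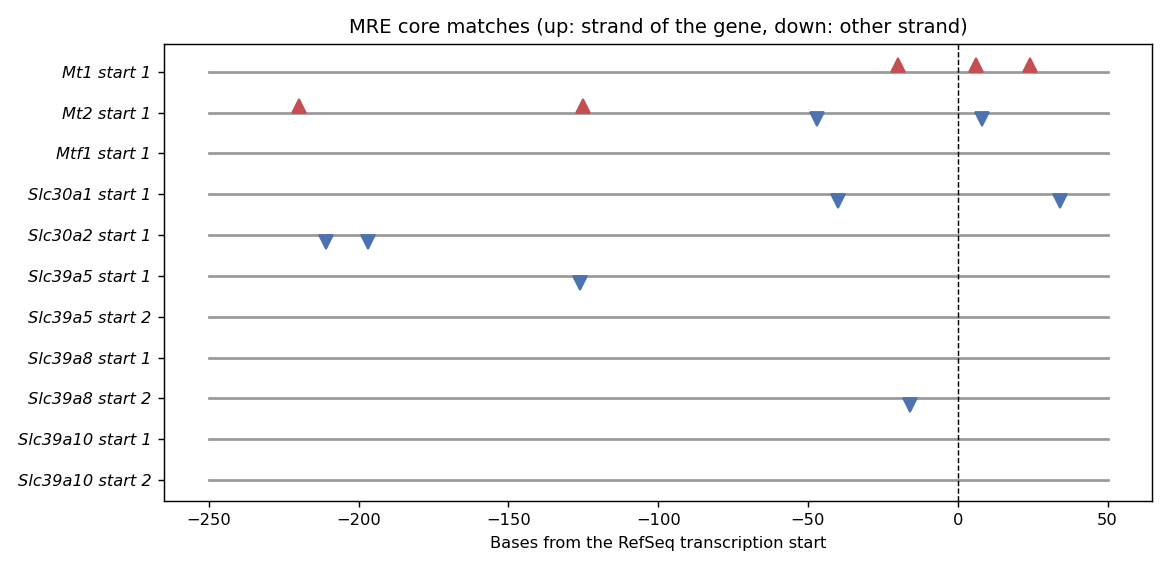
Position of MRE core matches relative to the RefSeq transcription start (x axis, bases) in the promoter windows of 8 of the 9 genes, 1 line per window. Upward triangles mark matches on the strand of the gene and downward triangles those on the other strand; Mt1 has 3, Mt2 has 4 and the windows of Mtf1 and Slc39a10 have none.

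The central result is a joint rise of Mt1 and Mt2 in injured knockout kidneys. Without injury neither gene differed between the genotypes past the threshold. I/R raised Mt1 17.2-fold and Mt2 25.3-fold in knockout kidneys, against 3.43-fold for Mt2 and 1.66-fold, not called, for Mt1 in control kidneys. The zinc transporters moved in both directions in the same samples: Slc39a10 was higher, Slc30a1 and Slc39a5 lower, and Slc39a4, Slc39a8 and Slc30a2 did not pass the test between the injured groups.

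**Figure D2:**
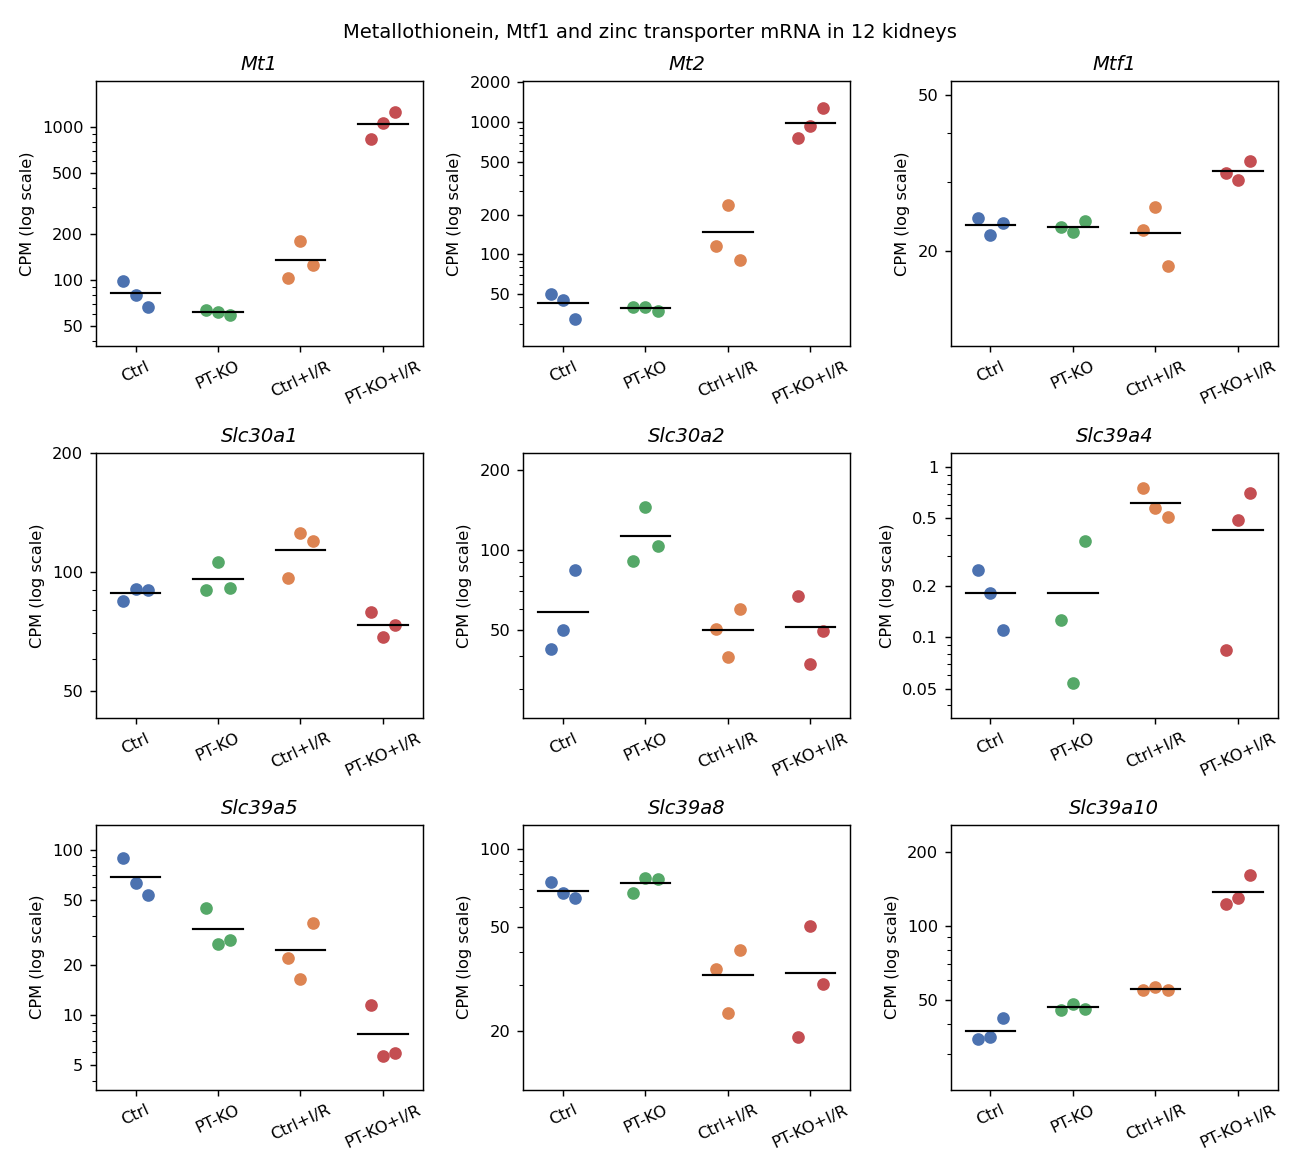
Expression of each gene (y axis, CPM on a log scale) in the 12 libraries, by group (x axis); points are libraries and horizontal bars group means, n = 3. In PT-KO+I/R, Mt1 lies between 836 and 1249 CPM and Mt2 between 752 and 1277, far above every other library, while Slc39a5 falls to between 5.68 and 11.6.

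Several lists of cell markers in the same libraries differed with injury or genotype. The summed level of the 10 proximal tubule markers was 13489 to 15757 CPM in Ctrl, 14466 to 16706 in PT-KO, 4331 to 9655 in injured Ctrl and 2766 to 3296 in injured PT-KO. That of 5 markers of injured proximal tubule was 12.6 to 23.4, 8.89 to 12.6, 576 to 2672 and 4762 to 6310 CPM. Mt1, Mt2 and Slc39a10 were highest in the group where the second list was highest, and Slc39a5 was lowest where the first was lowest. Markers of other nephron segments were lower after I/R too. In Ctrl and injured Ctrl, respectively, those of the thick ascending limb were at 4403 to 5872 and 1437 to 3761 CPM, those of the distal convoluted tubule at 962 to 1235 and 286 to 485, and those of the collecting duct at 309.7 to 355 and 109 to 298. In injured PT-KO they were at 1918 to 2355, 255 to 303 and 125 to 171 CPM. In bulk tissue, fewer cells of a type and less RNA per cell cannot be told apart. Hepatocytes are rich in metallothionein, and 5 of their markers, at least 4 of them with a count in every library, summed to 70.5 to 166 CPM in Ctrl, 132 to 246 in PT-KO, 144 to 302 in injured Ctrl and 531 to 1316 in injured PT-KO. The sum does not show which of these hepatocyte markers rose. The 5 neutrophil markers summed to at most 2.34 CPM in Ctrl and 2.72 in PT-KO, 9.57 to 41.4 in injured Ctrl and 53.5 to 81.9 in injured PT-KO. Between injured Ctrl and injured PT-KO, markers of fibroblasts (201 to 255 against 90.5 to 142 CPM), macrophages (75.2 to 119.5 against 48.1 to 56.4), lymphocytes (1.02 to 5.59 against 0.168 to 0.512) and erythroid cells (82.1 to 217 against 41.8 to 49.0) were lower, and those of endothelium (244 to 269 against 335 to 336) higher, without overlap. Endothelium overlapped between Ctrl (240.3 to 271) and injured Ctrl, and podocyte markers overlapped between the injured groups (292 to 339 and 307 to 353). The part of these markers in the results was not tested. Of 5 pancreatic acinar markers, Cpa1, Prss2, Pnlip and Cel were at 0 in every library, while Cela1 had counts in all. The list, and so Cela1, summed to 87.2 to 97.9 CPM in Ctrl, 68.3 to 79.7 in PT-KO, 15.5 to 44.3 in injured Ctrl and 16.5 to 24.0 in injured PT-KO.

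Mt2 (chr8:94172664-94173568, plus strand, mm10) and Mt1 (chr8:94179082-94180327, plus strand) are neighbours on chromosome 8, with 5513 bases between them. Mt1 was at 98.7, 79.8 and 66.8 CPM in Ctrl and at 63.7, 61.4 and 59.2 in PT-KO. It was at 103, 179.7 and 125 CPM in injured Ctrl and at 836, 1066 and 1249 in injured PT-KO. Every injured library was above every uninjured one, and the 3 injured PT-KO libraries were set apart from the other 9 by a wide gap. Mt2 was at 50.4, 45.6 and 32.5 CPM in Ctrl and at 40.0, 40.4 and 37.5 in PT-KO. After I/R it was at 116, 235 and 90.6 CPM in injured Ctrl and at 752, 929 and 1277 in injured PT-KO. Ctrl and PT-KO overlapped for Mt2, and injured Ctrl library 2 was the highest of its group for both genes.

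Between the injured groups Mt1 was higher in injured PT-KO by 2.97 on the log2 scale (SE 0.24), a 7.82-fold difference, with an adjusted p of 2.04e-04 by edgeR's quasi-likelihood test with Benjamini-Hochberg adjustment over all genes. Mt2 was higher by 2.76 (SE 0.37), or 6.77-fold, with an adjusted p of 0.00104. Among 15281 genes tested Mt1 ranked 100 and Mt2 ranked 123 by fold change. In knockout kidneys, I/R raised Mt1 by 4.11 (SE 0.15, adjusted p 4.42e-08) and Mt2 by 4.66 (SE 0.19, adjusted p 6.48e-08). In control kidneys Mt2 rose by 1.78 (SE 0.35, adjusted p 0.0199), and Mt1 differed by 0.73 (SE 0.22, adjusted p 0.0581) without passing the threshold. Mt1 passed there under DESeq2 (adjusted p 0.0154), with total counts (0.0496), with no low-count filter (0.0237) and in 1 fit to all 12 libraries (0.0216). The Mt2 call in control kidneys was lost without Ctrl library 1 (adjusted p 0.0670) or Ctrl library 2 (adjusted p 0.0734). The difference between the I/R responses of the 2 genotypes, tested as an interaction over all 12 libraries, was 3.39 for Mt1 (SE 0.30, adjusted p 4.46e-05) and 2.89 for Mt2 (SE 0.44, adjusted p 7.39e-04). Between uninjured groups the log2 difference was -0.42 for Mt1 (SE 0.14, adjusted p 0.226), called without Ctrl library 3 (-0.55, adjusted p 0.0103), and -0.13 for Mt2 (SE 0.15, adjusted p 0.681). Ctrl library 3 is the only male library of its group, so without it sex and genotype cannot be told apart in this comparison. Over all alternatives the uninjured difference of Mt1 ran from -0.58 to -0.13, and it was -0.26 without Ctrl library 1. The smallest value came without the libraries carrying Xist, which leaves only Ctrl library 3 in Ctrl.

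Leaving out injured PT-KO library 2, the one with the high antisense share, gave 3.12 for Mt1 and 2.93 for Mt2 between the injured groups. This library bears on Mt2 in particular, because 73.5% of the exon bases of Mt2 are shared with an antisense gene, Gm45774, and the sources used here do not say whether counting used strand. Gm45774 had 648 counts in that library, 7.24% of its Mt2 count, but 7 and 4 in the other injured PT-KO libraries and at most 2 in the other 9. Mt1 has no such partner. The longest identical run between the transcripts of Mt1 and Mt2 was 20 bases.

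Per length, the metallothioneins ranked among the highly expressed genes in every group, and highest in injured PT-KO. Mt1 averaged 149 ± 29.2 CPM per kilobase in Ctrl, 112 ± 4.14 in PT-KO, 247 ± 72.2 in injured Ctrl and 1913 ± 377 in injured PT-KO (SD, n = 3). Mt2 averaged 83.8 ± 18.2, 76.9 ± 3.06, 288 ± 151 and 1929.6 ± 522 CPM per kilobase in the same order. Among 22473 protein-coding genes ranked by group mean, Mt1 thus moved from rank 370 in Ctrl and 567 in PT-KO to 157 in injured Ctrl and 16 in injured PT-KO. Mt2 moved from rank 722 and 843 to 131 and 15. Together they took 0.936 to 1.56 of every 10000 counts in Ctrl and 0.906 to 0.992 in PT-KO. Their share was 2.34 to 4.68 in injured Ctrl and 15.5 to 23.7 in injured PT-KO.

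The balance of the pair was compared as well. The ratio of Mt2 to Mt1 counts was 0.511, 0.572 and 0.486 in Ctrl and 0.627, 0.658 and 0.634 in PT-KO. It was 1.13, 1.31 and 0.724 in injured Ctrl and 0.900, 0.871 and 1.02 in injured PT-KO. Every injured library thus had a higher ratio than every uninjured one, and the injured groups overlapped. The log2 ratio was higher by 0.97 after I/R in control kidneys and by 0.54 in knockout kidneys, with no overlap of groups. Without injury it was higher by 0.29 in PT-KO than in Ctrl, also with no overlap. Each of these 3 differences had an exact two-sided permutation p of 0.1, the smallest that 3 against 3 libraries can give. Between the injured groups the ratio differed by -0.14 (exact permutation p 0.6).

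**Figure D3:**
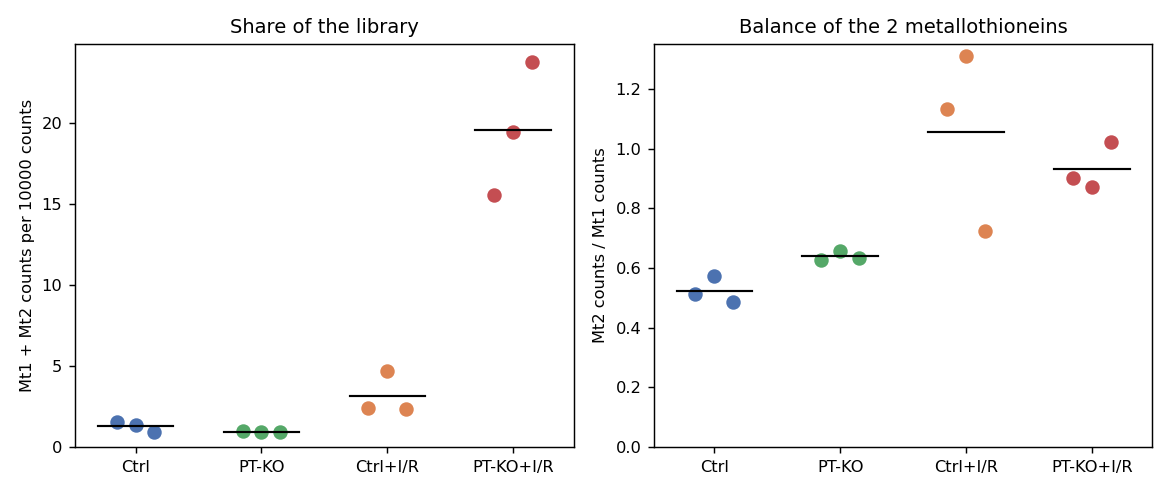
Left, counts of Mt1 and Mt2 together per 10000 counts of the library; right, the ratio of Mt2 to Mt1 counts, both on linear axes from 0, by group. Points are libraries and bars group means (n = 3): the share is highest in PT-KO+I/R (15.5 to 23.7), whereas the ratio is highest in Ctrl+I/R library 2 (1.31) and overlaps between the injured groups.

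Mtf1 (chr4:124802104-124849800, plus strand) encodes the sensor itself and varied little. It was at 24.3, 22.0 and 23.6 CPM in Ctrl, 22.99, 22.4 and 23.9 in PT-KO and 22.6, 25.9 and 18.3 in injured Ctrl, against 31.7, 30.3 and 34.0 in injured PT-KO. The first 3 groups overlapped and injured PT-KO lay above all of them. Mtf1 was higher in injured PT-KO than in injured Ctrl by 0.53 (SE 0.14, adjusted p 0.0162) and than in PT-KO by 0.48 (SE 0.10, adjusted p 0.00170). The call between the injured groups was lost with total counts in place of TMM normalization (0.32, adjusted p 0.111), without injured Ctrl library 1 (adjusted p 0.0510) and without injured PT-KO library 4 (adjusted p 0.0616). The interaction was 0.56 (SE 0.17, adjusted p 0.0259). Its call was lost with total counts, with no low-count filter or under a replicate block (adjusted p up to 0.0910). It was also lost without Ctrl library 1, PT-KO library 1 or 2, or injured PT-KO library 4 (adjusted p up to 0.0646). Without both libraries carrying Xist, which leaves 1 library in Ctrl, the interaction was 0.56. In control kidneys I/R left a difference of -0.06 (SE 0.14, adjusted p 0.772), and the uninjured groups differed by -0.02 (SE 0.09, adjusted p 0.921). Mtf1 shares 8.1% of its exon bases with 1110065P20Rik on the other strand, which had 143 to 332 counts per library (236 to 270 in injured Ctrl, 229 to 332 in injured PT-KO) against 287 to 683 for Mtf1.

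Slc30a1 (chr1:191906767-191913247, plus strand) encodes ZnT1, which exports zinc across the plasma membrane. Its levels were 84.4, 90.6 and 89.7 CPM in Ctrl and 90.1, 106 and 91.0 in PT-KO. They were 96.4, 125 and 119.9 CPM in injured Ctrl and 79.0, 68.3 and 73.3 in injured PT-KO. The 3 injured PT-KO libraries were below all others, and injured Ctrl had the highest group mean while overlapping PT-KO. It was lower in injured PT-KO than in injured Ctrl by 0.62 on the log2 scale (SE 0.12, edgeR adjusted p 0.00469), opposite in direction to Mt1 and Mt2. I/R lowered it in knockout kidneys (log2 change -0.37, SE 0.10, adjusted p 0.00679), whereas in control kidneys the difference was 0.37 (SE 0.12, adjusted p 0.0658), called by DESeq2 (adjusted p 0.0458), with total counts (0.0400) and in 1 fit to all 12 libraries (0.0300). The interaction, -0.72 (SE 0.16, adjusted p 0.00562), was called. The uninjured groups differed by 0.11 (SE 0.09, adjusted p 0.549). Slc30a1 shares 8.92% of its exon bases with the antisense gene 1700034H15Rik, which had 16 to 65 counts per library against 940 or more for Slc30a1.

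Slc30a2 (chr4:134343181-134354484, plus strand) encodes ZnT2, which loads zinc into vesicles. It was at 42.5, 49.9 and 84.1 CPM in Ctrl, 91.0, 145 and 103 in PT-KO, 50.6, 39.6 and 60.0 in injured Ctrl and 67.6, 37.5 and 49.6 in injured PT-KO. PT-KO was above the other 3 groups. Its uninjured difference of 0.94 (SE 0.26, adjusted p 0.207) did not pass the threshold. It was called by DESeq2 (0.95, adjusted p 0.00864), with no low-count filter (0.94, adjusted p 0.0295) and, at 1.28, without Ctrl library 3, the highest of its group, an omission that leaves female libraries only in Ctrl and makes sex and genotype inseparable. I/R lowered Slc30a2 in knockout kidneys (log2 change -1.13, SE 0.22, adjusted p 0.00117), while the difference with I/R in control kidneys was -0.23 (SE 0.27, adjusted p 0.558). The injured groups differed by 0.05 (SE 0.23, adjusted p 0.874). The interaction was -0.88 (SE 0.39, adjusted p 0.109), called under the same omission (-1.23, adjusted p 0.0209). Without the libraries carrying Xist, Ctrl library 3, the highest of its group, alone remained in Ctrl. The uninjured difference was then 0.42, the interaction -0.38 and the difference with I/R in control kidneys -0.77.

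Slc39a10 (chr1:46807544-46892852, minus strand), which encodes the plasma membrane zinc importer ZIP10, rose with injury in both genotypes. It was at 34.5, 35.2 and 42.3 CPM in Ctrl and 45.5, 48.3 and 45.8 in PT-KO. After I/R it was at 54.6, 56.5 and 54.8 CPM in injured Ctrl and at 122, 129.9 and 161 in injured PT-KO. No group overlapped another, in the order Ctrl, PT-KO, injured Ctrl and injured PT-KO. The rise with I/R was 0.57 in control kidneys (SE 0.11, adjusted p 0.0182) and 1.58 in knockout kidneys (SE 0.11, adjusted p 1.34e-06), and the interaction was 1.02 (SE 0.16, adjusted p 7.29e-04). Between the injured groups it was higher by 1.33, or 2.51-fold (SE 0.12, adjusted p 2.92e-04). The rise in control kidneys was not called without Ctrl library 1 or 2 or injured Ctrl library 1 (adjusted p 0.0603 to 0.0718). That rise was 0.37 without both libraries carrying Xist, which leaves 1 library in Ctrl. The uninjured groups differed by 0.31 (SE 0.10, adjusted p 0.212), which was called without Ctrl library 3 (0.41, adjusted p 0.0183), when all Ctrl libraries are female and sex and genotype cannot be told apart. It was 0.13 without the libraries carrying Xist, the lowest of the alternatives.

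Slc39a5 (chr10:128395931-128401229, minus strand) encodes ZIP5, a zinc importer of the basolateral membrane in gut epithelium. It fell with injury: it was at 88.8, 63.3 and 53.5 CPM in Ctrl and 44.4, 27.1 and 28.5 in PT-KO. It was at 22.2, 16.5 and 36.2 CPM in injured Ctrl and at 11.6, 5.68 and 5.88 in injured PT-KO. PT-KO and injured Ctrl overlapped, while Ctrl lay above and injured PT-KO below them. The log2 change with I/R was -1.46 in control kidneys (SE 0.31, adjusted p 0.0225) and -2.13 in knockout kidneys (SE 0.29, adjusted p 1.10e-04). The fall in control kidneys was not called without Ctrl library 1, Ctrl library 2 or injured Ctrl library 1 (adjusted p 0.0718 to 0.0799). Without both of these Ctrl libraries, which leaves only Ctrl library 3 in Ctrl, the change was -1.12. Injured PT-KO was lower than injured Ctrl by 1.70 (SE 0.37, adjusted p 0.00722). The interaction, -0.65 (SE 0.47, adjusted p 0.318), was not called, so a larger fall in knockout kidneys was not shown. Leaving out 1 library moved it from -1.04 (without injured PT-KO library 2, adjusted p 0.104) to -0.30 (without injured Ctrl library 4), and over all 18 alternatives it reached -0.17. Between the uninjured groups PT-KO differed by -1.05 (SE 0.24, adjusted p 0.183), a difference that DESeq2 called (-1.04, adjusted p 9.85e-04) and that was also called with no low-count filter (adjusted p 0.00933) and, with sex and genotype then inseparable, without Ctrl library 3 (-1.20). It was -0.70, the smallest of the alternatives, without the libraries carrying Xist, which leaves only Ctrl library 3, the lowest of its group, in Ctrl.

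Slc39a8 (chr3:135825279-135888572, plus strand) encodes ZIP8, which imports zinc, manganese and cadmium. It was at 74.5, 68.0 and 64.9 CPM in Ctrl, 67.5, 77.5 and 76.3 in PT-KO, 34.6, 23.3 and 40.7 in injured Ctrl and 19.0, 50.6 and 30.4 in injured PT-KO. The uninjured groups overlapped, as did the injured ones, and all injured libraries were below all uninjured ones. The log2 change with I/R was -1.07 in control kidneys (SE 0.20, adjusted p 0.0163) and -1.11 in knockout kidneys (SE 0.26, adjusted p 0.00386). The call in control kidneys was lost without Ctrl library 1 (adjusted p 0.0680), Ctrl library 2 (0.0653), both of these (0.138) or injured Ctrl library 1 (0.0532). The interaction was -0.03 (SE 0.38, adjusted p 0.956). The uninjured groups differed by 0.08 (SE 0.09, adjusted p 0.652) and the injured ones by 0.04 (SE 0.34, adjusted p 0.932). Slc39a4 (chr15:76612383-76617384, minus strand), which encodes ZIP4, the importer of dietary zinc in the gut, had 1 to 17 counts per library. It was at 2 to 5 counts in Ctrl, 1 to 6 in PT-KO, 8 to 17 in injured Ctrl and 1 to 11 in injured PT-KO. It had too few counts to be tested in 3 of 4 comparisons and differed by -0.46 (SE 0.58, adjusted p 0.535) between the injured groups. Its interaction was -0.43 (SE 1.01, adjusted p 0.775).

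Read as a list, the genes changed often, but so did the transcriptome. After I/R in control kidneys 4 of the 8 tested were called (Mt2 and Slc39a10 higher, Slc39a5 and Slc39a8 lower), where 19.4% of all genes tested were called (11.4% higher, 7.97% lower). The count was 6 with DESeq2, with total counts and in 1 fit to all 12 libraries, and 5 with no low-count filter. Without either of Ctrl libraries 1 and 2 it was 0, and without injured Ctrl library 1 it was 1. A fit without both of these Ctrl libraries leaves 1 library in Ctrl, so no count is read from it. Between the injured groups 6 of 9 were called, 4 higher and 2 lower, against 46.9% of all genes (22.5% higher, 24.4% lower). After I/R in knockout kidneys all 8 tested were called, 4 in each direction, against 65.5% (32.9% higher, 32.7% lower). The interaction was called for 5 of 9, 4 higher and 1 lower, against 30.6% (14.3% higher, 16.4% lower). Between the uninjured groups 0 of 8 were called, with 0% of all genes called by edgeR, although 2573 genes (16.8%) had an unadjusted p under 0.05. DESeq2 called 458 genes there, with Slc30a2 and Slc39a5 among them. All libraries of one group lay beyond those of the other for 7 of 9 genes in control I/R, the untested Slc39a4 among them (43.6% of all genes tested), 6 of 9 between the injured groups (58.6%), 4 of 9 between the uninjured groups (21.0%) and 8 of 9 in knockout I/R (70.7%). The median log2 difference over the 9 genes was 0.05 between the injured groups, beside -0.0049 over all genes. With total counts in place of TMM the median of all genes there shifted by -0.21. The direction of every call between the injured groups was the same under that scaling.

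**Figure D4:**
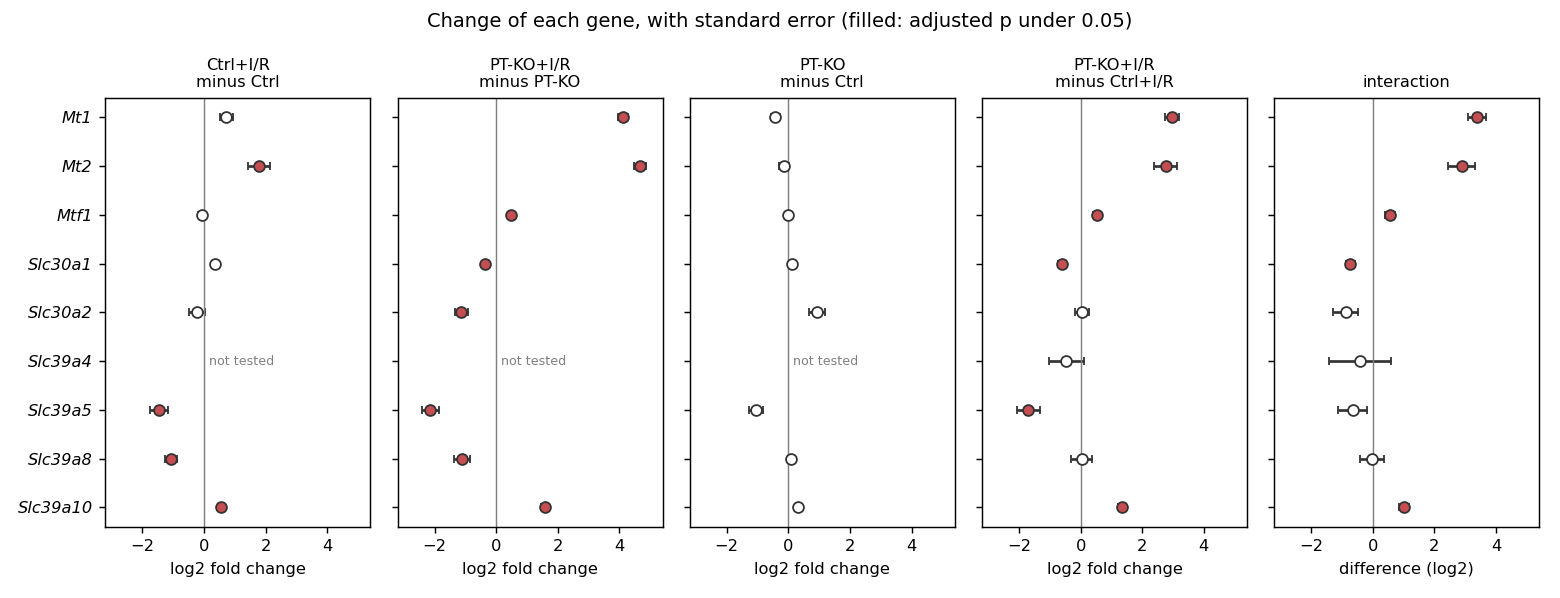
Log2 fold change with its standard error (x axis) of each gene in the 4 comparisons and the interaction, from edgeR; filled points have an adjusted p under 0.05. Mt1 and Mt2 lie at 4.11 and 4.66 for I/R in knockout kidneys but at 0.73 and 1.78 in control kidneys, and no point is filled between the uninjured groups.

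The other metallothioneins and zinc transporters of the mouse, 20 genes, were more often higher than lower in injured PT-KO than in injured Ctrl. Between the injured groups 14 could be tested, of which 8 were higher and 1 lower, with a median log2 difference of 0.64 beside -0.0049 over all genes (22.5% of all genes were higher, 24.4% lower). In control kidneys I/R raised 2 of 13, Slc39a1 (0.73, adjusted p 0.0219) and Slc39a6 (0.80, adjusted p 0.0278), and lowered 0, against 11.4% and 7.97% of all genes. In knockout kidneys I/R raised 7 of 14 and lowered 4, against 32.9% and 32.7%. The interaction was called for 8 of 14, 7 higher and 1 lower, against 14.3% and 16.4%. Between the uninjured groups 0 of 13 were called.

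The importer Slc39a14 (ZIP14), which carries zinc, iron and manganese and is known as an acute-phase gene of the liver, was at 66.0, 68.5 and 67.1 CPM in injured Ctrl and at 249, 367 and 310.2 in injured PT-KO. The uninjured libraries held 55.9 to 93.4 CPM, so that only injured PT-KO stood apart. Its I/R responses differed between the genotypes by 2.04 (SE 0.25, adjusted p 1.86e-04). Slc39a6 (ZIP6), the closest relative and known partner of Slc39a10, was at 15.4, 16.7 and 10.8 CPM in injured Ctrl and 27.5, 27.2 and 31.3 in injured PT-KO, higher by 1.01 (SE 0.17, adjusted p 0.00261). Slc39a1 (ZIP1), a plasma membrane importer, was higher by 0.74 (SE 0.15, adjusted p 0.00488) and Slc39a13 (ZIP13), an importer of intracellular membranes, by 0.55 (SE 0.14, adjusted p 0.0154). The Slc39a13 call was lost with total counts (0.34, adjusted p 0.0904) and without injured Ctrl library 1, injured PT-KO library 3 or injured PT-KO library 4 (adjusted p up to 0.0645), and 4.42% of its exon bases are shared with the far more counted Psmc3 on the other strand. Slc39a7 (ZIP7), the importer of the endoplasmic reticulum, was higher by 1.69 (SE 0.45, adjusted p 0.0172) but rested on 5 to 15 counts in injured Ctrl and 13 to 41 in injured PT-KO. It shares 80.7% of its exon bases with another gene on the same strand, Gm20427, so its level is uncertain. The call was lost without injured Ctrl library 1 or 4 or injured PT-KO library 3 or 4 (adjusted p up to 0.0729).

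Among the SLC30 genes, the endosomal transporter Slc30a4 (ZnT4) was at 49.6, 52.7 and 43.6 CPM in injured Ctrl and 119, 119.9 and 132 in injured PT-KO, higher by 1.36 (SE 0.11, adjusted p 1.99e-04). Slc30a7 (ZnT7), of the Golgi, was higher by 0.72 (SE 0.09, adjusted p 9.24e-04). Slc30a9 (ZnT9), linked to zinc export from mitochondria, went the other way. It was at 165, 148 and 191 CPM in injured Ctrl and 83.5, 83.3 and 72.4 in injured PT-KO, a log2 difference of -1.06 (SE 0.13, adjusted p 6.63e-04). Mt3, a metallothionein best known from brain, had 5, 3 and 1 counts in injured Ctrl and 34, 51 and 31 in injured PT-KO, and was called at 3.88 (SE 0.44, adjusted p 5.93e-04). It had 20 counts in Ctrl library 1, so it was not confined to injured knockout kidneys. The 6 genes that could not be tested had at most 12 counts in any library, and Slc30a3 and Slc30a10 among them at most 2.

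**Figure D5:**
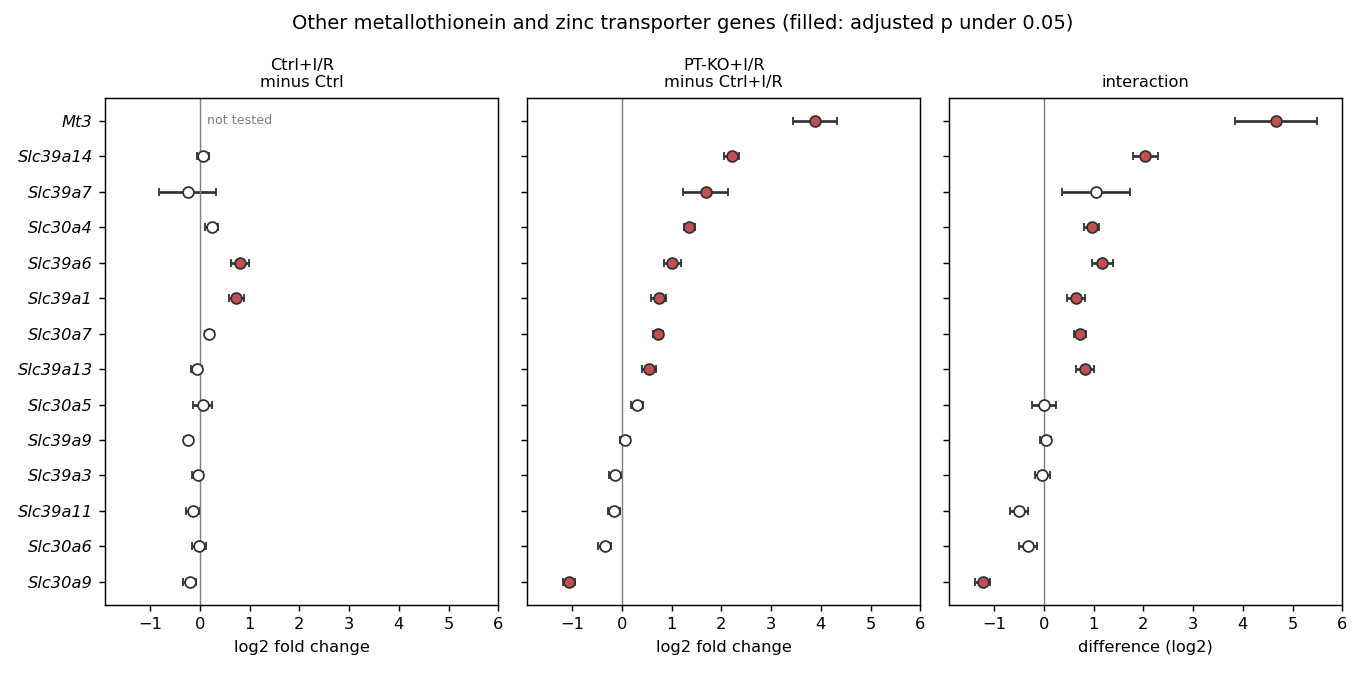
Log2 fold change with its standard error (x axis) of the 14 other metallothionein and zinc transporter genes that could be tested between the injured groups, for I/R in control kidneys, for the injured knockouts against the injured controls and for the interaction; filled points have an adjusted p under 0.05. Mt3 (3.88) and Slc39a14 (2.21) lead the middle panel and Slc30a9 (-1.06) is its lowest.

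Genes of related pathways were counted between injured PT-KO and injured Ctrl, where 22.5% of all genes tested were higher and 24.4% lower, with a median of -0.0049. Of 12 copper handling genes, 0 were higher and 4 lower, with a median of -0.32. The lower ones were the copper exporters Atp7b (-1.62) and Atp7a (-0.42), the copper chaperone for superoxide dismutase Ccs (-0.66) and the importer Slc31a1 (-0.62). Without injured Ctrl library 1 the calls of Ccs and Slc31a1 were lost, and without injured Ctrl library 4 those of Ccs and Atp7a. Leaving out injured PT-KO library 2 lost Atp7a, leaving out library 3 lost Ccs and Slc31a1, and leaving out library 4 lost all 3 (adjusted p up to 0.101). Of 5 further genes described as targets of MTF-1, the stress gene Ndrg1 (1.71) and the LIM protein gene Csrp1 (0.27) were higher. The iron exporter Slc40a1 (-0.77) and the selenoprotein gene Selenoh (-0.77) were lower. The call of Csrp1 was lost in 10 of 13 alternatives, among them total counts (0.07, adjusted p 0.603) and the omission of injured Ctrl library 1 or 4 or of any of the injured PT-KO libraries. That of Slc40a1 was lost without injured PT-KO library 4 (adjusted p 0.0526). Gclc, the remaining gene of that list, was not called (0.43, adjusted p 0.0950). Genes described as MTF-1 targets were found in both directions, with Mt1, Mt2 and Ndrg1 higher and Slc30a1, Slc40a1 and Selenoh lower. The part of MTF-1 in these changes was not tested. Of 8 glucocorticoid-responsive genes, 7 were higher and 0 lower, with a median of 1.73. Examples were the zinc finger gene Zbtb16 (4.63), the EGFR inhibitor gene Errfi1 (2.05), the clock gene Per1 (2.00) and the steroid receptor chaperone gene Fkbp5 (1.81). In control kidneys I/R raised 0 of these 8 genes and lowered 2, with a median of -0.52, against 11.4% and 7.97% of all genes. In knockout kidneys I/R raised 5 and lowered 0, with a median of 1.10, against 32.9% and 32.7%. The part of glucocorticoid signalling in the metallothionein result was not tested.

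Genes with the most similar course over the 12 libraries were found by the root mean square distance between log2 CPM profiles centred on their means, among 16167 genes. Nearest to Mt1 was Srxn1 (0.22), the gene of sulfiredoxin, which repairs oxidised peroxiredoxins, followed by Prrg4 (0.34) and Pi15 (0.36). Mt1 itself varied with an SD of 1.62 on that scale, and Mt2 was 0.44 away from it. Nearest to Mt2 were the ERK phosphatase gene Dusp5 (0.34), Flnc (0.38) and the sphingosine kinase gene Sphk1 (0.39). Slc39a10 ran with Pax8 (0.11), a transcription factor gene of kidney epithelium, Tead1 (0.11) and Dnajc5 (0.13). Slc39a5 ran with the enzyme genes Prodh2 (0.27), Hpgd (0.30) and Shmt1 (0.31), and Slc39a8 with Dmgdh (0.24), Echdc3 (0.25) and Ppic (0.26). Slc30a2 was closest to Ttc39c (0.21), to Slc22a6 (0.22), the organic anion transporter of the proximal tubule, and to Ovol1 (0.22). Slc30a1 was closest to the proton pump subunit gene Atp6v1c1 (0.09), Cse1l (0.10) and Nol7 (0.11), and Mtf1 to Dcaf5, Camsap3 and Lrig2 (each 0.08). Slc30a1 and Mtf1 themselves varied little, with an SD of 0.25 and 0.24. Their small distances therefore do not mean a closer likeness than those of Mt1. For Slc39a4, at its low counts, the distances were 0.55 to 0.58 (Cxcl10, Peg10 and Nnmt). These distances describe 12 libraries that share 4 groups.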

How the data were processed

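RNA-seq of mouse kidney cortex was analysed in 12 libraries. The authors deposited 1 table of read counts per Ensembl gene, not normalized or filtered. Per the submitters' processing notes HISAT2 2.0.4 and mm10 were used, and the counting program is not given in the sources used here. Of 55487 identifiers 55141 had a symbol in GENCODE M21, which also gave positions in mm10, and 29160 had a count. Ctrl library 3 was grouped by its column name, since the sample titles of that group are numbered 1, 2 and 4. No column of another series was present.

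Each comparison was fitted to its 6 libraries, and the interaction to all 12, in edgeR 4.0.16 (R 4.3.3): low genes removed by filterByExpr, TMM scaling, quasi-likelihood test. SE is the absolute log2 fold change divided by the square root of F. Calls required an adjusted p below 0.05 (Benjamini-Hochberg, all tested genes). CPM used TMM over the 12 libraries, and CPM per kilobase the length of the APPRIS principal transcript. The ratio of Mt2 to Mt1 was compared with exact permutation tests. The precision of each comparison rests on 3 libraries per group. Promoter windows came from RefSeq (GRCm38.p6), and 8 of the 9 genes had one. The members and lists were chosen with earlier results of these data known. All 9 members are described in each comparison in which they could be tested. Other zinc genes are named where called between the injured groups or in the interaction, or where nearly without counts, and at most 4 called genes per pathway list are named, those with the largest change. Gm45774 was named after its values were seen. Deviations from group means correlated by -0.162 to 0.146 (median -0.0188) in the 12 pairs that share a replicate number. The labels do not say what these numbers mean, and no pairing was used. The scripts were tested on simulated counts. Alternatives were total counts in place of TMM, DESeq2 1.42.0, other low-count filters, 1 fit to all libraries, a replicate block, a fit to the 10 libraries without Xist, and leaving out each library in turn. Those for the other zinc genes and the pathway genes were added after seeing the data. The fit without Xist leaves 1 library in Ctrl. For comparisons with Ctrl and for the interaction, only effect sizes are therefore given from that fit.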

Additional observations from a re-analysis of the deposited data

Results flagged for a closer look

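For 13 of the zinc genes the response to I/R differed between knockout and control kidneys in a test of the difference itself, the knockout by I/R interaction of edgeR over all 12 libraries, on the log2 scale. Among the 9 genes described, the response of knockout kidneys was higher for Mt1 (3.39, adjusted p 4.46e-05), Mt2 (2.89, adjusted p 7.39e-04), Slc39a10 (1.02, adjusted p 7.29e-04) and Mtf1 (0.56, adjusted p 0.0259), and lower for Slc30a1 (-0.72, adjusted p 0.00562). Among the other zinc genes it was higher for Mt3 (4.67), Slc39a14 (2.04), Slc39a6 (1.17), Slc30a4 (0.96), Slc39a13 (0.82), Slc30a7 (0.73) and Slc39a1 (0.65), and lower for Slc30a9 (-1.23), with adjusted p-values from 1.86e-04 (Slc39a14) to 0.0200 (Slc39a1). In all genes tested 30.6% were called in this test. Both female libraries are in Ctrl. The fit to the 10 libraries without Xist leaves 1 library in Ctrl, so no calls are read from it. It gave 0.56 for Mtf1, 0.66 for Slc39a1 and 0.67 for Slc39a13, beside 0.56, 0.65 and 0.82 over all 12 libraries. The call of Slc39a1 was lost without PT-KO library 1 (adjusted p 0.0508) or under a replicate block (adjusted p 0.0791).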

How the results depend on the processing

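Of the alternative values computed, 900 kept their direction and their side of the threshold, 60 lost a call, 17 gained one and 26 changed sign. No value that changed sign was called as reported. Between the injured groups 5 to 6 of the 9 genes were called under every alternative (5 to 6 leaving out 1 library), and the calls of Mt1 (2.75 to 3.21), Mt2 (2.50 to 3.25), Slc39a10, Slc30a1 and Slc39a5 held in 13 of 13. In control kidneys after I/R the count of 4 became 6 with DESeq2, total counts or 1 fit to all libraries, 5 with no low-count filter, and 0 to 5 leaving out 1 library. Between the uninjured groups the count of 0 became 2 with DESeq2, 2 with no low-count filter and 0 to 4 leaving out 1 library (4 without Ctrl library 3, which leaves female libraries only in Ctrl). The labels do not say whether the replicate numbers pair libraries, and a fit with them as a block called 1 gene there, Slc30a2 (1.27, adjusted p 0.0427). The block called 6 genes between the injured groups. It lost the calls of Slc39a7 (1.40, adjusted p 0.0715), Ccs (-0.59, adjusted p 0.0808) and Csrp1 (0.30, adjusted p 0.0912) there and of Mtf1 (0.59, adjusted p 0.0910) and Slc39a1 (0.61, adjusted p 0.0791) in the interaction. It moved 4 uncalled values across 0: Slc30a2 in control I/R (0.13), Slc39a8 between the injured groups (-0.41), and Mtf1 (0.021) and Slc39a8 (-0.066) between the uninjured groups.

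Total counts turned Mtf1 in control I/R to 0.058, Slc30a2 and Slc39a8 between the injured groups to -0.15 and -0.15, and Slc30a1 and Slc39a8 between the uninjured groups to -0.017 and -0.044. Without the libraries carrying Xist, Mt2 between the uninjured groups was 0.27. Leaving out 1 library, sign changes occurred for Mtf1 (-0.17 to 0.059) and Slc30a2 (-0.41 to 0.12) in control I/R, for Slc30a2 (-0.18 to 0.25) and Slc39a8 (-0.38 to 0.32) between the injured groups, for Mt2 (-0.30 to 0.00011) and Mtf1 (-0.055 to 0.011) between the uninjured groups, and for Slc39a4 (-0.89 to 0.54) and Slc39a8 (-0.48 to 0.24) in the interaction. The cause was not tested.

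Over all genes, 3019 were called in control I/R as reported, 4938 in 1 fit to all libraries and 379 to 4061 leaving out 1 library. Between the uninjured groups the count went from 0 to 458 with DESeq2, 388 with no filter, 355 with the block, 1 with total counts and 0 to 1930 leaving out 1 library. The interaction went from 4953 to 3215 with the block. Scaling moved the split of higher and lower calls from 1778 and 1241 to 2346 and 766 in control I/R, from 3444 and 3725 to 1978 and 5080 between the injured groups, and from 2305 and 2648 to 1591 and 2997 in the interaction. Slc39a4, at 1 to 17 counts per library, was untested in control I/R as reported (2 to 5 counts in Ctrl, 8 to 17 in injured Ctrl). It was called there when injured Ctrl library 4 was left out. Its other changes could not be resolved at these counts.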
